A study of Mus musculus with 12 samples.

Results

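The kidney response to GW4064 in mice that lack the farnesoid X receptor (FXR) was described over 14065 genes of 24532 gene identifiers in the deposited tables. A gene was kept when it reached 1 TPM (a transcript level scaled for gene length and library size) in at least 3 of the 6 FXR knockout libraries, and 26 genes passed only through the libraries of a single treatment group. The comparison was 3 kidney libraries of knockout mice given GW4064 against 3 of knockout mice given vehicle, and 3 GW4064 and 3 vehicle libraries of wild-type mice were measured beside them. The knockout groups carried the strain label Nr1h4tm1Gonz/J, a targeted allele of Nr1h4 (the gene of FXR) that is inactive in the whole body, and the wild-type groups the label C57BL/6. GW4064 was given for 6 h, and the design text says that mice were fasted overnight. No dose, age or sex is given, nor a time for the vehicle groups, and none of the libraries is labelled as cisplatin-treated although the series title names cisplatin injury and ferroptosis. Because the 2 genotypes have different strain labels, the loss of FXR and any other difference between the strains cannot be told apart. Whether each library is a different mouse is not stated, and p-values therefore reflect the spread between libraries alone, which may be technical.

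FXR is a nuclear receptor that binds bile acids and switches on genes that export and detoxify them, among them the basolateral bile acid transporter made of Slc51a and Slc51b. GW4064 is a synthetic FXR agonist. The comparison within the knockout asks what this compound does in a kidney without its receptor. Pathways known to answer foreign compounds in the kidney include NRF2, the transcription factor of antioxidant and conjugating genes, and the nuclear receptors PPAR-alpha, CAR and PXR, and the aryl hydrocarbon receptor, which belongs to another protein family. NRF2 is held down by KEAP1, which delivers it to degradation until electrophiles or oxidants modify KEAP1. In the proximal tubule, PPAR-alpha drives fatty acid oxidation, which rises in fasting.

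The whole-gene level of Nr1h4 was 120, 116 and 113 TPM in the knockout vehicle libraries and 105, 131 and 134 TPM in the knockout GW4064 libraries, against 189 to 267 TPM in the 6 wild-type libraries. Every knockout library lay below every wild-type library, and this value, summed over the gene, cannot separate full-length from truncated transcripts. The 12 libraries held 2.86 to 4.27 gigabases of mapped sequence, estimated from the coverage and FPKM columns (3.0 to 4.27 in the knockout libraries), and log2 levels correlated at 0.982 to 0.988 between libraries of 1 group and at 0.970 to 0.987 across groups. Kidney markers were abundant: Kap, an androgen-responsive proximal tubule transcript, made up 4.79% to 6.4% of all TPM. The adrenal gene Cyp11b1 was listed at 0 in all 12 libraries. Differences were tested with limma on log2(TPM + 0.5) over all 12 libraries, and adjusted p-values are Benjamini-Hochberg values over the 14065 genes.

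GW4064 changed 2 genes in FXR knockout kidney at an adjusted p under 0.05: Slc16a1 rose and Trim7 fell. They are 0.0142% of the genes tested, or 0.00711% in each direction. With only the 6 knockout libraries in the fit, 0 genes were called, and the smallest adjusted p was 0.142 by limma. In wild-type kidney the same fit called 694 genes (4.93%), 358 higher (2.55%) and 336 lower (2.39%), and the higher share of these calls was 51.6% with TPM as deposited and 66.4% after median-of-ratios scaling. Single libraries moved the wild-type total: it was 448 and 390 without wild-type vehicle libraries 1 and 3, and 338 and 409 without wild-type GW4064 libraries 1 and 2. Without wild-type GW4064 library 1 the split was 226 higher and 112 lower. The total was 433 when the mean log2 level of 4 fat markers (a fat marker score) entered the fit. At an unadjusted p under 0.05, a threshold that marks genes for description and not as called, 1537 genes (10.9%) differed in the knockout, 884 of them higher (6.29%) and 653 lower (4.64%). The split depended on scaling: 57.5% of these genes were higher with TPM as deposited, 42.0% after median-of-ratios scaling, 49.3% after quantile normalization and 52.1% with FPKM. The median log2 difference of all genes was 0.02, and 8004 genes (56.9%) were above 0. The 25th and 75th percentiles of the knockout log2 differences were -0.06 and 0.11, and the 1st and 99th were -0.58 and 0.66.

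Slc16a1 encodes MCT1, a proton-coupled carrier of lactate, pyruvate and ketone bodies. Its level was 111.1, 90.4 and 101.8 TPM in the knockout vehicle libraries and 180.2, 166.3 and 162.7 TPM in the knockout GW4064 libraries. The groups did not overlap, as in 1248 genes (8.87%) that were higher and 714 (5.08%) that were lower without overlap. The mean rose from 101.1 ± 10.4 to 169.7 ± 9.24 TPM (SD, n = 3 each), a log2 change of 0.75 ± 0.10 (SE) with an adjusted p of 0.0466 by limma. In wild-type kidney Slc16a1 was low under both treatments, at 22.2, 24.8 and 22 TPM with vehicle and 22.5, 27.6 and 21.7 TPM with GW4064, and every knockout vehicle library lay above every wild-type library. The difference between the GW4064 effects in the 2 genotypes was 0.70 ± 0.14 on the log2 scale (interaction adjusted p = 0.0193 by limma). The call was close to the threshold: it was made under 8 of 26 alternative settings, with adjusted p between 0.0168 and 0.213, while the log2 change stayed between 0.67 and 0.82.

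Trim7 encodes a ubiquitin ligase of the tripartite motif family that also binds glycogenin. Its level was 70.2, 75 and 75.5 TPM with vehicle and 49.5, 52.8 and 49.2 TPM with GW4064 in the knockout, so all 3 treated libraries lay below all 3 controls. The log2 change was -0.54 ± 0.06 with an adjusted p of 0.0167 by limma, to 0.689-fold of the vehicle level. In wild-type kidney it was 97.1, 92.4 and 86.4 TPM with vehicle and 99.3, 89.6 and 88.9 TPM with GW4064, and these groups overlapped. The genotypes differed in their effect by -0.55 ± 0.08 (interaction adjusted p = 0.00503 by limma). Trim7 kept an adjusted p under 0.05 in 19 of 26 alternative settings, with a range of 0.00912 to 0.154. Glycogenin (Gyg), the protein that primes glycogen and that TRIM7 binds, had 29.2, 28.9 and 32.4 TPM with vehicle and 27.6, 26.9 and 26.4 TPM with GW4064 (log2 -0.16, unadjusted p = 0.0208).

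**Figure D1:**
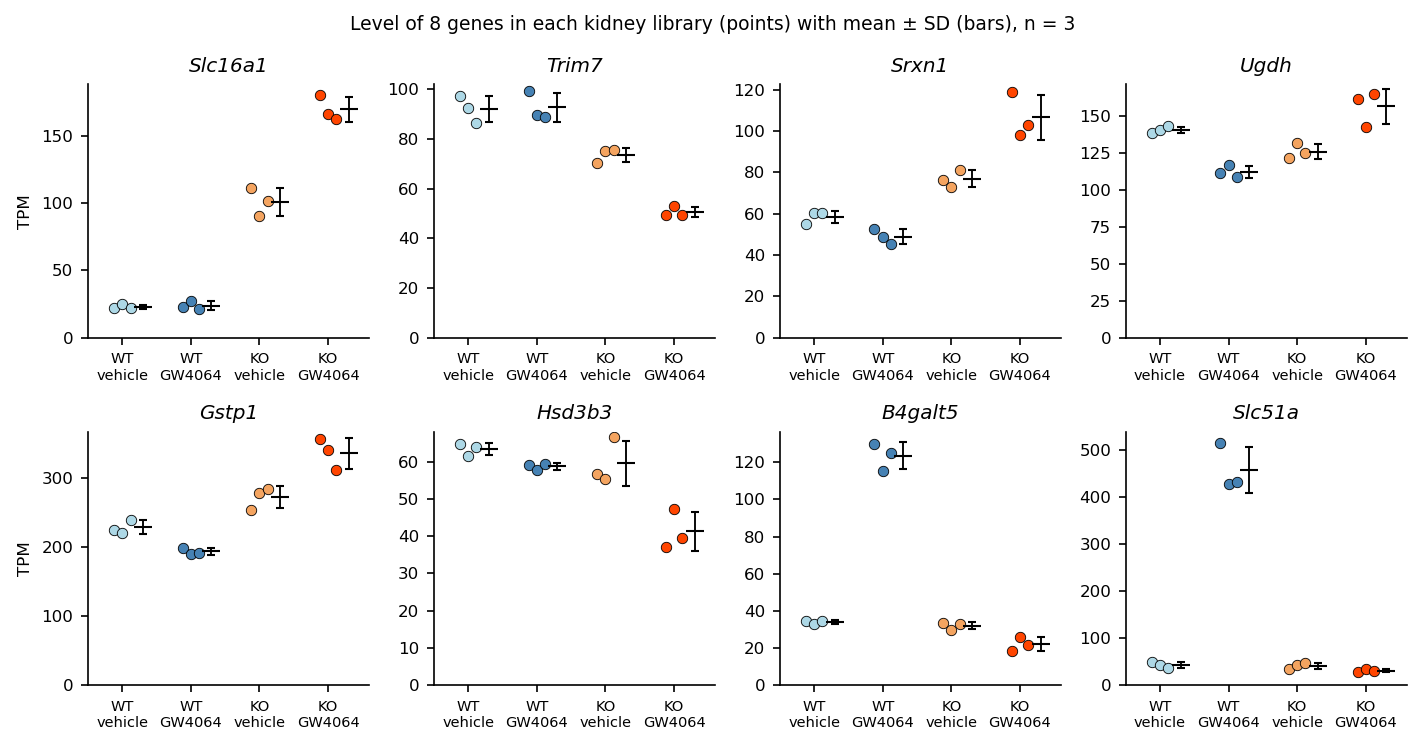
TPM of 8 genes in each of the 12 libraries (points, 3 per group) with the group mean and SD (bars); the groups are wild-type (WT) and FXR knockout (KO) kidney with vehicle or GW4064, and each vertical axis starts at 0. Slc16a1 sits between 162.7 and 180.2 in the treated knockout libraries and at most at 27.6 in wild type, Trim7 is lowest in the treated knockout libraries, and B4galt5 and Slc51a are highest in the wild-type GW4064 libraries.

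Partners and relatives of the Slc16a1 carrier were read beside it. Basigin (Bsg), the chaperone that carries MCT1 to the cell surface, had 519.7, 555.1 and 545.5 TPM with vehicle and 564.1, 540.4 and 527.8 TPM with GW4064 in the knockout, and these overlapped. Of 21 monocarboxylate and lactate transport genes tested, 3 were higher (Slc16a1, Slc16a6 and Slc5a8) and 3 lower (Slc16a14 and Slc16a13 among them) at an unadjusted p under 0.05 (14.3% in each direction, beside 6.29% higher and 4.64% lower over all genes). The higher count was 1 without knockout vehicle library 2, and at most 2 whichever single library was left out. The lower count was 1 without knockout GW4064 library 1 or 3, and 5 without knockout GW4064 library 2 or wild-type vehicle library 2. The list's median log2 difference was -0.02 beside 0.02 over all genes. Slc16a14, an orphan member of the family, read 81.6, 112.7 and 77.4 TPM with vehicle and 39.6, 77.5 and 64.1 TPM with GW4064 in the knockout, and it was called lower in wild type (log2 -1.58, adjusted p = 0.00217 by limma). Of 34 TRIM ligases tested, none but Trim7 and the muscle ligase Trim63 (log2 -0.50, unadjusted p = 0.0118) reached an unadjusted p under 0.05.

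Srxn1, which encodes sulfiredoxin, the enzyme that repairs overoxidized peroxiredoxins, had the lowest p of the NRF2 targets. Its level was 76.5, 73 and 81.3 TPM with vehicle and 118.8, 98.1 and 103 TPM with GW4064 in the knockout, without overlap. The log2 difference was 0.47 ± 0.08 with an unadjusted p of 7.6e-05 and an adjusted p of 0.126 by limma, so it did not pass. The difference between the genotypes did pass, at 0.72 (interaction adjusted p = 0.00512 by limma), with a wild-type difference of -0.26. Ugdh, which makes the UDP-glucuronate used in conjugation, had 121.1, 131.3 and 124.6 TPM with vehicle and 161.3, 142.6 and 164.5 TPM with GW4064. Gstp1, a glutathione transferase, had 254.2, 278.8 and 285.1 TPM with vehicle and 357.1, 340.5 and 312.7 TPM with GW4064. Both had an adjusted p of 0.126 in the knockout by limma, and their interaction differences were 0.63 and 0.54 (adjusted p = 0.00165 and 0.00503). These differences include a fall in wild type, where both were called lower (log2 -0.32 and -0.24, adjusted p = 0.00552 and 0.0376 by limma).

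The start regions of the 2 called genes and of these 3 NRF2 targets are shown because NRF2 with its small MAF partners binds antioxidant response elements near the starts of such genes. Each run is the 250 bases before a transcription start in RefSeq (GRCm38.p6, the coordinates of mm10), 5′ to 3′ on the gene's strand. Capitals mark the core TGACNNNGC or the longer form TGANTCAGC, each searched on both strands, and the motif forms were chosen with the data known. TGANTCAGC overlaps the AP-1 motif TGANTCA, and the 2 forms share letters, so a single site can meet both.
Srxn1 chr2:152105274-152105523 (+): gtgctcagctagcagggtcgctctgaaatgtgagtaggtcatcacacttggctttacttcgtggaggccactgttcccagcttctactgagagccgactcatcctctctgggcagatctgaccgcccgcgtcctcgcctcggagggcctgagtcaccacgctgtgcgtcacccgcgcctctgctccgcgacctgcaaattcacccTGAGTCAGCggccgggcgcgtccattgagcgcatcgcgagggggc
Gstp1 chr19:4037913-4038162 (-): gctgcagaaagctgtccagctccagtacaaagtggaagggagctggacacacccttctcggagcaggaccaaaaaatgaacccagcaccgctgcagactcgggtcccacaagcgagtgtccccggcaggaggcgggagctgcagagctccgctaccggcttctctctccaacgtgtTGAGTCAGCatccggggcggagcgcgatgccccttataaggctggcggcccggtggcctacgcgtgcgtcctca
Ugdh chr5:65435843-65436092 (-): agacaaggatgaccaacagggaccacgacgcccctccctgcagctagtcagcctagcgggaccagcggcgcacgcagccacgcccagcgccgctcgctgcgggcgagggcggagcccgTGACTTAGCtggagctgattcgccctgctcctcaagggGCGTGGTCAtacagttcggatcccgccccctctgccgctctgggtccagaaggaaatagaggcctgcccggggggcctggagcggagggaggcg
Slc16a1 chr3:104638414-104638663 (+): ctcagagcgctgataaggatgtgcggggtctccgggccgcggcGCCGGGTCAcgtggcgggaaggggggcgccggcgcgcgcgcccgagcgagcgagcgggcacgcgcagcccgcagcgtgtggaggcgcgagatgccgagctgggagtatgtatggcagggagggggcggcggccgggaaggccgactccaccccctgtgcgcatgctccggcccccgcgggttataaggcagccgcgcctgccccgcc
Trim7 chr11:48837221-48837470 (+): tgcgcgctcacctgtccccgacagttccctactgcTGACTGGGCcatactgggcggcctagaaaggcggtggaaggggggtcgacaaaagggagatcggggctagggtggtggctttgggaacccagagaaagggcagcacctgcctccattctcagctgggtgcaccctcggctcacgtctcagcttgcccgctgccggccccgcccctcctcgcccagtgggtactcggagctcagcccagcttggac
Srxn1 and Gstp1 held the same nonamer, TGAGTCAGC, whose first base lies 45 and 74 bases before the start. Ugdh held 2 cores, one on each strand. Slc16a1 and this start of Trim7 held one core each, while the window at the other Trim7 start, which is the start of the deposited gene, held no match. Of 10846 tested genes with a window, 1511 (13.9%) held the core and 130 (1.2%) the longer form. Of 36 NRF2 targets with a window, 10 (27.8%) held the core and 5 (13.9%) the longer form: Gstp1, Htatip2, Osgin1, Prdx1 and Srxn1. The list was drawn up from known NRF2 targets, so its share of motifs is not a finding of these data, and a match is a description of letters, not of binding. The FXR element IR-1, the hexamer AGGTCA and its inverted repeat with 1 base between them, was searched on both strands and was in no window of the 10846 genes as an exact match. The 20 FXR targets with a window held 0 as well. An exact match of this length is rare in 250 bases, so this search cannot tell sets of genes apart and its count is no result.

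Across the NRF2 target list, higher values in the treated knockout kidneys were common. Of 42 targets tested, 18 were higher and 1 lower at an unadjusted p under 0.05 (42.9% and 2.38%, beside 6.29% and 4.64% of all genes), and the median log2 difference was 0.23 beside 0.02. None passed the adjustment in the knockout. In wild-type kidney the median was -0.10, with 7 higher and 16 lower at an unadjusted p under 0.05, a threshold that 7.15% and 12.3% of all genes passed in those directions and 19.4% in all. The interaction called 11 of the 42 (26.2%, beside 3.25% of all genes), 10 with a higher difference in the knockout and 1, Nmrk1, with a lower one. The knockout count of 18 was between 16 and 19 under the 14 alternatives that left out no single library, and between 12 and 21 when each library was left out in turn. The list was chosen with earlier results of these data known.

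**Figure D2:**
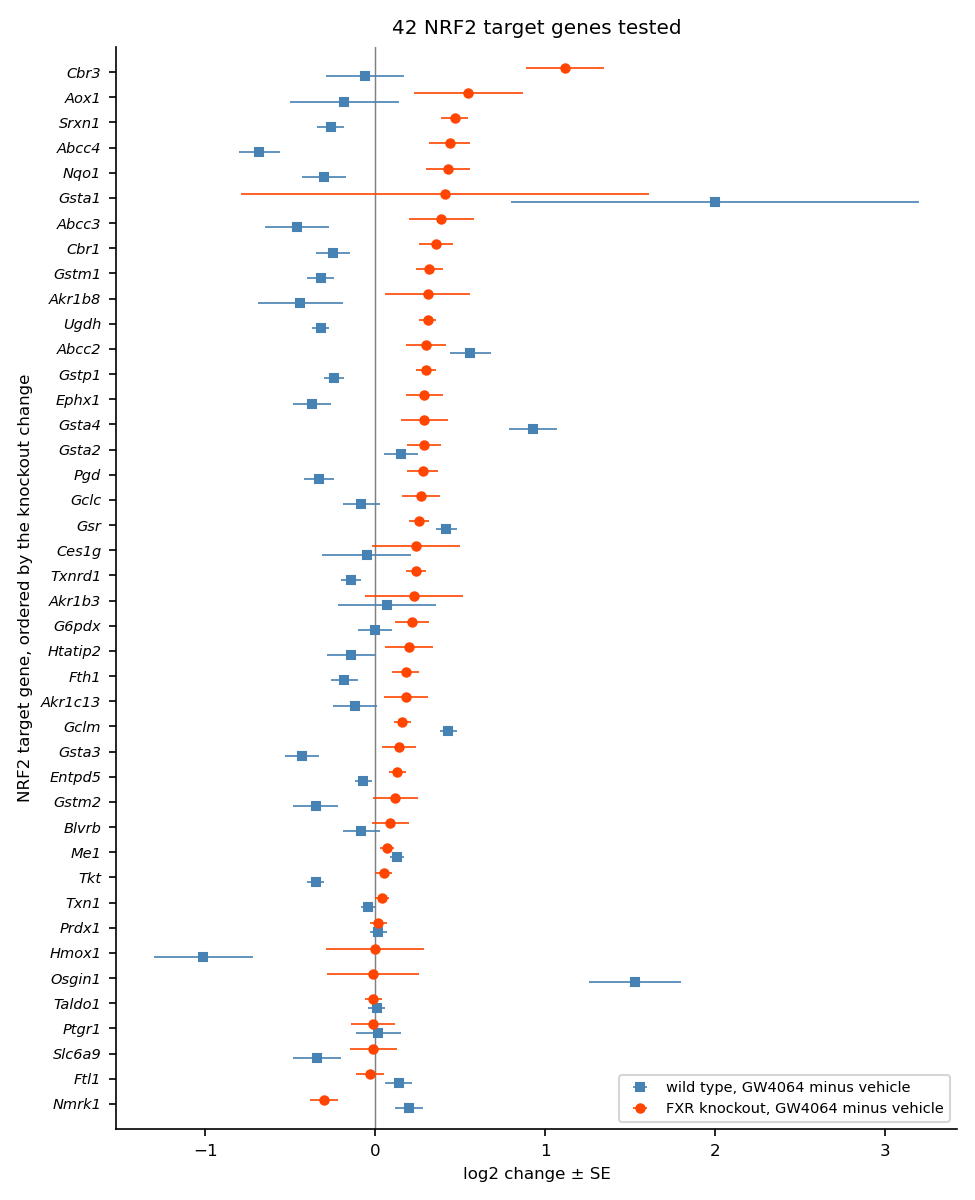
log2 change of the 42 NRF2 targets tested with GW4064 against vehicle, with SE, in FXR knockout (circles) and wild type (squares), ordered by the knockout change. The knockout value was above 0 for 36 of 42 genes; the wide bars of Gsta1 include a wild-type vehicle library listed at 0.

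Within the list, the enzymes that keep glutathione and thioredoxin reduced had small differences. Txnrd1, thioredoxin reductase, had 214.7, 213.2 and 209 TPM with vehicle and 269.9, 241 and 241.8 TPM with GW4064 (log2 0.24 ± 0.06, unadjusted p = 0.00221, interaction adjusted p = 0.0377 by limma). Gsr, glutathione reductase, had 182.9, 195.5 and 172.7 TPM with vehicle and 242, 207.1 and 213.3 TPM with GW4064. These 2 genes did not overlap between the groups, and Gsr was called higher in wild type too (log2 0.42, adjusted p = 0.00221 by limma). Nqo1, a quinone reductase used as a standard reporter of NRF2, had 178.4, 217.3 and 178.3 TPM with vehicle and 301.6, 213 and 261 TPM with GW4064, with overlap. Cbr3, a carbonyl reductase, read 5.32, 5.24 and 5.74 TPM with vehicle and 19.1, 9.7 and 10.3 TPM with GW4064, and its log2 difference of 1.12 was the highest of the list. The efflux pump Abcc4 had 49.3, 48.7 and 52.3 TPM with vehicle and 81, 56.2 and 70.1 TPM with GW4064 in the knockout, while it was called lower in wild type (log2 -0.68, adjusted p = 0.00653 by limma). Nmrk1, which makes nicotinamide mononucleotide, was the lower member, at 93.3, 86.8 and 78.6 TPM with vehicle and 63.8, 80.1 and 67.1 TPM with GW4064, with overlap. Heme oxygenase Hmox1, also a known NRF2 target, had 108.1, 92.9 and 81.5 TPM with vehicle and 101.2, 90.6 and 89.5 TPM with GW4064. Treated library 2 was the lowest of its group for Txnrd1, Gsr, Nqo1, Cbr3 and Abcc4. Gsta1, Gsta2, Gstm1, Gstm2 and Gstp1 have near-identical relatives, and their split is uncertain.

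Of 13 NRF2 regulators and partners tested, 5 were higher and 0 lower at an unadjusted p under 0.05 (38.5% and 0%, beside 6.29% and 4.64% of all genes). The median log2 difference was 0.17. Nfe2l2, the gene of NRF2 itself, had 119.6, 130.7 and 117.2 TPM with vehicle and 132.6, 142 and 145.3 TPM with GW4064 (log2 0.19, unadjusted p = 0.00383). Nfe2l1, a related factor that controls proteasome genes, had 101.7, 104.9 and 106.5 TPM with vehicle and 116, 114.8 and 121.1 TPM with GW4064 (log2 0.17, interaction adjusted p = 0.0195 by limma). Both separated the groups without overlap. The small MAF partner Maff, the autophagy receptor Sqstm1 and the ligase adaptor Btrc were the other 3, with log2 differences of 0.61, 0.17 and 0.25. Keap1 had 28.3, 26.7 and 29 TPM with vehicle and 30.7, 28.9 and 30.6 TPM with GW4064, and these overlapped. The proteasome subunit Psmd11 had 96.6, 104.8 and 103.1 TPM with vehicle and 124.1, 120.9 and 126.9 TPM with GW4064 (log2 0.29, adjusted p = 0.151 by limma). Psmd11 was named for its low p. No list of proteasome genes was read, and a link to Nfe2l1 was not tested.

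The series title names ferroptosis, a lipid peroxidation death that glutathione peroxidase 4 (Gpx4) and ferroptosis suppressor protein 1 (Aifm2) hold back and that Acsl4 favours by loading membranes with polyunsaturated lipids. In the knockout, Gpx4 had 1294, 1319 and 1244 TPM with vehicle and 1410, 1289 and 1315 TPM with GW4064. Aifm2 had 23.6, 28.3 and 23.9 TPM with vehicle and 22.7, 23.7 and 24.6 TPM with GW4064, whereas it was called higher in wild type (log2 0.67, adjusted p = 5.6e-04 by limma) and the genotypes differed by -0.76 (interaction adjusted p = 0.00471). Acsl4 had 96.1, 134.5 and 107.4 TPM with vehicle and 127.1, 118.4 and 118.2 TPM with GW4064. All 3 overlapped between the knockout groups. Of 33 suppressors tested, 9 were higher and 2 lower at an unadjusted p under 0.05 (27.3% and 6.06%, beside 6.29% and 4.64% of all genes). Their median log2 difference was 0.06, and 9 of the list's genes are on the NRF2 list as well. Most of the higher suppressors, Srxn1, Gsr, Txnrd1 and Nqo1 among them, are NRF2 targets already counted above. Nfe2l2, also higher, is on the list of NRF2 regulators. Of 23 drivers, 2 were higher (8.7%), the glutamine carrier Slc1a5 and the transferrin receptor Tfrc, and 0 lower.

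None of the FXR target genes tested was called in the knockout, where only 0.0142% of all genes were. Slc51a had 34.3, 41.5 and 46.5 TPM with vehicle and 28.6, 33.2 and 30.1 TPM with GW4064 in knockout kidney (log2 -0.40, unadjusted p = 0.00727, adjusted p = 0.269 by limma), against a wild-type log2 change of 3.43. Its partner Slc51b had 60.6, 65.1 and 55.3 TPM with vehicle and 45.4, 61.3 and 46 TPM with GW4064 in the knockout, against a wild-type change of 2.80. The interactions were -3.83 and -3.05 (adjusted p = 1.2e-06 and 9.3e-06 by limma). B4galt5, a galactosyltransferase of glycolipid synthesis, had 33.4, 29.9 and 32.7 TPM with vehicle and 18.3, 26 and 21.6 TPM with GW4064 in the knockout, lower in all 3 treated libraries, and was called higher in wild type (log2 1.85). Cyp26b1, which breaks down retinoic acid, read the other way: 12.2, 9.2 and 12.4 TPM with vehicle and 21.6, 12.7 and 18.5 TPM with GW4064 in the knockout, and a wild-type log2 change of -1.75. The interactions were -2.39 for B4galt5 (adjusted p = 9.3e-06) and 2.35 for Cyp26b1 (adjusted p = 0.00164). Osgin1, an oxidative stress gene called higher in wild type (log2 1.53), had 33.9, 47.7 and 26.5 TPM with vehicle and 29.8, 44.8 and 31.5 TPM with GW4064 in the knockout. Nr0b2, the FXR-driven corepressor SHP, was low in both groups, at 2.13 to 3.61 TPM. Of 21 genes of this list tested, 2 were higher and 3 lower at an unadjusted p under 0.05 in the knockout. These were 9.52% and 14.3%, beside 6.29% and 4.64% of all genes. The list holds genes picked from earlier results of these data.

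The 694 genes called in wild type were then read in the knockout. Of the 358 called higher, 160 were above 0 in the knockout and 198 below, with a median log2 difference of -0.01 against 0.47 in wild type. Of the 336 called lower, 200 were above 0 and 136 below, with a median of 0.04 against -0.38. None of the 694 was called in the knockout, where only 0.0142% of all genes were called. At an unadjusted p under 0.05, 28 of the first set were higher and 45 lower in the knockout, and 57 and 36 of the second. Over all genes, 6.29% were higher and 4.64% lower at this threshold, and 56.9% were above 0. The interaction, tested over all 14065 genes, called 457 (3.25%), 215 higher (1.53%) and 242 lower (1.72%) in the knockout than in wild type, and it included 201 of the first set and 131 of the second. The higher share of these calls was 47.0% with TPM as deposited, 28.3% after median-of-ratios scaling, 37.1% after quantile normalization and 38.6% with FPKM. Single libraries moved the total: 283, 257, 217 and 294 genes were called without wild-type vehicle libraries 1 and 3 and wild-type GW4064 libraries 1 and 2, and 234 and 274 without knockout vehicle library 1 and knockout GW4064 library 3. The total was 205 when the fat marker score entered the fit. Adipoq, the defining fat hormone, was at 3.09, 3.99 and 2.96 TPM with vehicle and 0.133, 4.47 and 0.528 TPM with GW4064 in wild type, so wild-type GW4064 libraries 1 and 3 lay below every wild-type vehicle library. The median log2 difference of the 10 fat markers tested was -0.74 in wild type against 0.29 in the knockout, with a median interaction of 1.20. The 8 urothelium markers tested had medians of -0.66 and 0.35 and a median interaction of 1.11, and their sum was 134 to 147 TPM with vehicle and 111 to 115 TPM with GW4064 in wild type. None of these markers was called for the interaction, and apart from the fit with the fat score their part in the wild-type and interaction counts was not tested. The interaction shares its wild-type libraries with the choice of these sets, so these last counts are a description.

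**Figure D3:**
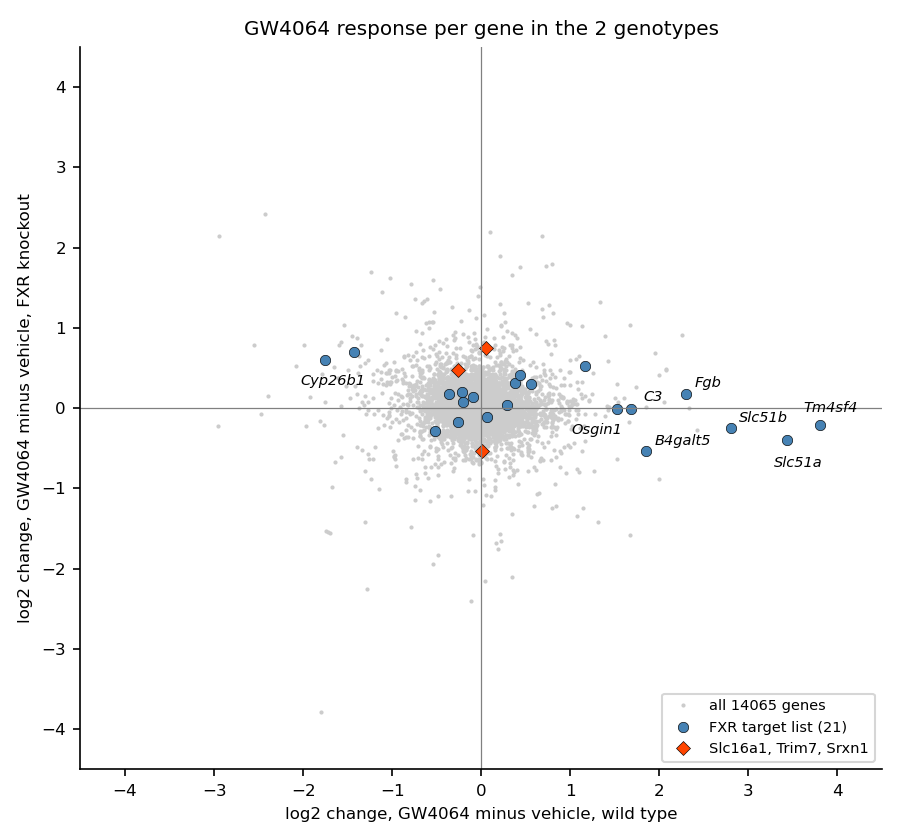
log2 change with GW4064 against vehicle in wild type (horizontal) and in FXR knockout (vertical) for 14065 genes (grey), with the FXR target list (circles) and the 3 genes Slc16a1, Trim7 and Srxn1 (diamonds). Slc51a, Slc51b and Tm4sf4 lie far to the right at knockout values of -0.40, -0.25 and -0.21, while Slc16a1 and Trim7 lie near 0 on the wild-type axis.

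Genes of low p outside these lists passed no adjustment in the knockout. Hsd3b3, a 3-beta-hydroxysteroid dehydrogenase, had 56.6, 55.4 and 66.5 TPM with vehicle and 37.2, 47.2 and 39.5 TPM with GW4064 (log2 -0.53, adjusted p = 0.126 by limma). It has near-identical relatives, so the split of its reads is uncertain. Sepsecs, which makes selenocysteinyl-tRNA, had 51.9, 48.8 and 51.4 TPM with vehicle and 42.1, 42 and 42 TPM with GW4064 (log2 -0.27, interaction adjusted p = 0.00909 by limma). Rnf145, a ubiquitin ligase of the endoplasmic reticulum that targets HMG-CoA reductase, had 65, 56.9 and 69.7 TPM with vehicle and 44.4, 51.7 and 45.8 TPM with GW4064. Hsd3b3 and Rnf145 were both called when knockout vehicle library 2, and again when knockout GW4064 library 2, was left out. Neu1, a lysosomal sialidase, had 132.8, 123.4 and 131.7 TPM with vehicle and 109.5, 111.2 and 111.3 TPM with GW4064 in the knockout, and it was called higher in wild type (log2 0.45, adjusted p = 9.7e-05 by limma; interaction -0.67, adjusted p = 1.3e-04). The lipid genes Lpgat1, Ugt8a, Elovl1 and Lpar3, the signalling adaptor Rtkn and the repressor Hes6 were also lower without overlap, with log2 differences of -0.27, -0.52, -0.24, -0.42, -0.40 and -0.41. Among higher genes, the ligase subunit Wsb1 had 108.8, 125.4 and 118.7 TPM with vehicle and 146.6, 201.4 and 202.3 TPM with GW4064 in the knockout and was called lower in wild type (log2 -0.67, adjusted p = 0.00659 by limma). Cwc27, Lrrc28 and Rab6b had log2 differences of 0.38, 0.27 and 0.49, without overlap. Lack of overlap was a condition for naming genes by their low p, so it is no separate result for them. Over all genes, 8.87% were higher and 5.08% lower without overlap. The small RNA entries Snora75 and Mir365-2 had log2 differences of 1.00 and 0.80. Snora75 was at 3.65 to 12.1 TPM and Mir365-2 at 4.17 to 9.57 TPM in the knockout libraries. Snora75 lies within the nucleolin gene Ncl on the same strand, and reads of these entries cannot be told apart.

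**Figure D4:**
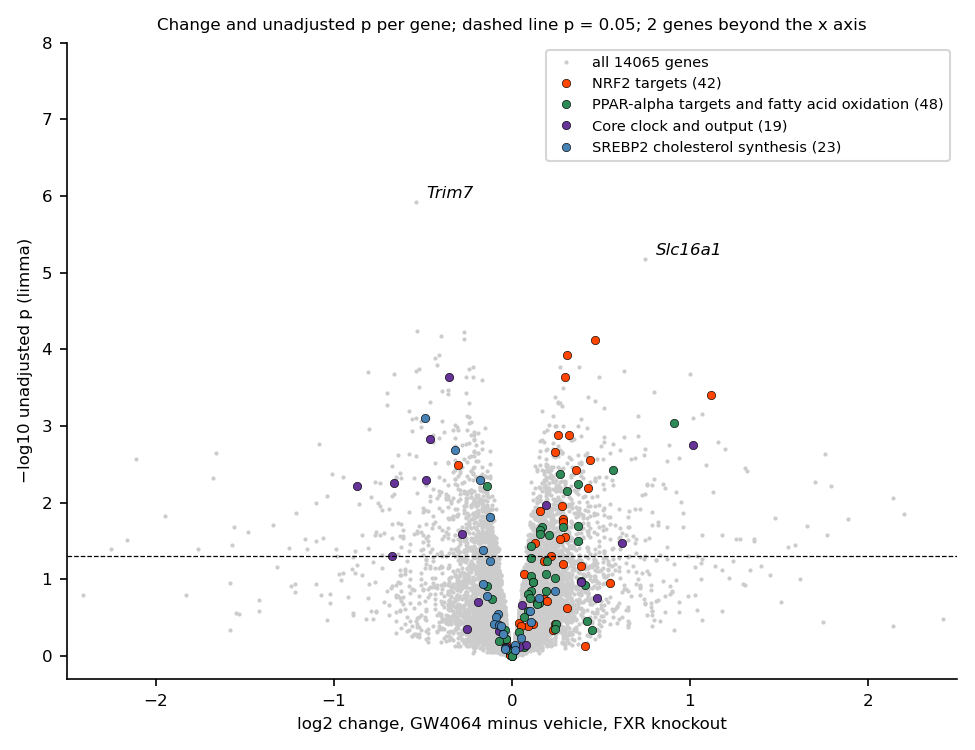
log2 change with GW4064 against vehicle in FXR knockout (horizontal) and -log10 of the unadjusted limma p (vertical) for 14065 genes, with members of 4 lists in colour; the dashed line marks the threshold of 0.05 and 2 genes lie beyond the horizontal axis. Trim7 and Slc16a1 stand at the top, the NRF2 targets lie mostly on the right, and the SREBP2 cholesterol genes above the line all lie on the left.

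Fatty acid oxidation genes stood mostly above 0 in the treated knockout libraries. Of 48 PPAR-alpha targets and fatty acid oxidation genes tested, 38 had a positive log2 difference, beside 56.9% of all genes. At an unadjusted p under 0.05, 13 were higher and 1, the carnitine carrier Slc22a5, lower (27.1% and 2.08%, beside 6.29% and 4.64% of all genes), and the median log2 difference was 0.13. In wild type, 9 were higher and 7 lower at this threshold, which 7.15% and 12.3% of all genes passed. The interaction called 2 of the 48 (4.17%, beside 3.25% of all genes). The lipid droplet coat Plin2 had 428.9, 710.3 and 515.9 TPM with vehicle and 936.2, 742.6 and 743.4 TPM with GW4064. Eci1, an isomerase of fatty acid oxidation, had 276.3, 328 and 302.3 TPM with vehicle and 358.9, 338 and 400 TPM with GW4064, and the mitochondrial thioesterase Acot2, which has near-identical relatives, had a log2 difference of 0.37. Ppara itself had 104.4, 129.1 and 109.4 TPM with vehicle and 96.5, 114.9 and 105 TPM with GW4064, and these overlapped. Single libraries moved the count of 13, which was 6, 20 and 8 without knockout vehicle libraries 1, 2 and 3, and 8 and 7 without knockout GW4064 libraries 1 and 3. Among 8 ketone body genes, Acat2 and Oxct1 were lower. Of 33 targets of the estrogen-related receptors and mitochondrial biogenesis genes, Etfdh was higher (3.03%) and 4 were lower (12.1%: Esrra, Idh3a, Cox5a and Slc25a4). Esrra had 87.2, 76.2 and 86.9 TPM with vehicle and 66.6, 72.9 and 69.9 TPM with GW4064.

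Cholesterol synthesis, phosphate handling and proximal tubule genes were read next, beside shares of 6.29% higher and 4.64% lower over all genes. Of 23 SREBP2 cholesterol synthesis genes, 0 were higher and 5 lower at an unadjusted p under 0.05 (21.7%), with a median log2 difference of -0.07, and the lower count was 3 without knockout vehicle library 2. Mvd, Stard4, Hmgcs1 and Cyp51 were among them. Mvd, the decarboxylase of the mevalonate pathway, had 32.6, 29.8 and 29 TPM with vehicle and 21.6, 27.1 and 24.5 TPM with GW4064, with an interaction of -0.51 (adjusted p = 0.0336 by limma). Of 21 lipogenesis genes under LXR and SREBP1, 2 were lower, Acaca and Fads2. Of 13 vitamin D and mineral genes, 3 were lower (23.1%): the sodium phosphate carriers Slc34a1 and Slc34a3 and the coreceptor Kl. Slc34a3 had 45.8, 48.6 and 50.6 TPM with vehicle and 36.9, 42.3 and 33.9 TPM with GW4064, with an interaction of -0.55 (adjusted p = 0.0158 by limma). Of 18 proximal tubule markers, 5 were lower (27.8%: Slc34a1, Miox, Hnf4a, Lrp2 and Gatm) and 1 higher, the aspartate carrier Slc7a13, with a median of -0.09. The count of 5 was 3 without knockout vehicle library 1 or 3, and 2 without knockout GW4064 library 1 or 3. The summed level of these markers was 72100 to 84300 TPM with vehicle and 73000 to 78200 TPM with GW4064, most of it Kap. Without Kap the sum was 19100 to 20300 TPM with vehicle and 17200 to 19300 TPM with GW4064. In whole kidney, fewer cells of a type and less RNA per cell cannot be told apart.

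Among sugar metabolism genes, 5 of 27 were higher (18.5%, beside 6.29% of all genes) and 1 lower (3.70%, beside 4.64%) at an unadjusted p under 0.05. The higher count was 8 without knockout GW4064 library 1. The interaction called 8 of them (29.6%, beside 3.25% of all genes), 7 with a higher difference in the knockout than in wild type. In wild type, 4 of the 27 were higher and 12 lower at an unadjusted p under 0.05, which 7.15% and 12.3% of all genes passed. Pyruvate kinase Pklr had 21.4, 19.4 and 24.4 TPM with vehicle and 44.4, 25.1 and 29.6 TPM with GW4064. Phosphofructokinase Pfkl had 40.5, 45.4 and 43.1 TPM with vehicle and 47.6, 46.8 and 46.8 TPM with GW4064. Its log2 difference was 0.13 in the knockout and -0.15 in wild type, with an interaction of 0.28 (adjusted p = 0.0413 by limma). Pklr and Pfkl both separated the knockout groups. Of 19 core clock and output genes, 7 were lower (36.8%, beside 4.64% of all genes) and 3 higher (15.8%, beside 6.29%), and the higher count was 1 without knockout GW4064 library 3. The output factor Tef had 141.9, 165.6 and 139.3 TPM with vehicle and 115.9, 124.4 and 109.6 TPM with GW4064, and Nr1d2, a repressor of the loop, had 65.5, 77.2 and 69.1 TPM with vehicle and 62.4, 46.3 and 45.9 TPM with GW4064. Per2 and Per3 were lower by the same test (log2 -0.66 and -0.48), while Npas2, Clock and Arntl, the activators of the loop, were higher (1.02, 0.19 and 0.62). In wild type, 3 of these 19 genes were higher and 6 lower at that threshold, and the interaction called 1 (5.26%, beside 3.25% of all genes). With vehicle, the mean of Arntl was 14.9 TPM in the knockout and 2.5 TPM in wild type, and that of Per3 19 and 43.6 TPM. Clock (39.5 and 35.1 TPM) and Per2 (34.1 and 38 TPM) lay closer together. The labels give no hour of collection, and its part in the result was not tested.

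Other receptor and stress lists were read at the same unadjusted p of 0.05, which 6.29% of all genes passed higher and 4.64% lower, 10.9% in all. Of 12 CAR and PXR targets tested, 4 were higher (33.3%: Gadd45b, Alas1, Aldh1a7 and Aldh1a1) and 0 lower. Cyp2b10 and Cyp3a11, which these receptors switch on in liver, were at most at 1.07 and 0.171 TPM in the 6 knockout libraries of both treatments. Of 8 aryl hydrocarbon receptor targets, 3 were higher (37.5%), Nfe2l2, Nqo1 and Ugt1a6a, and Cyp1a1 was at 0.397 to 0.961 TPM in the knockout libraries. Nfe2l2 and Nqo1 were already counted on the NRF2 lists. Ugt1a6a shares exons with its neighbours, and its value is uncertain. Of 20 bile acid and organic anion transporters, Abcc4, Slco1a4 and Abcc2 were higher and Slc51a lower, and Abcc4 and Abcc2 are on the NRF2 target list as well. Of 23 integrated stress response genes, 4 were higher, Ddit3, Ppp1r15a, Eif4ebp1 and Nupr1, and Psph lower, while of 20 unfolded protein response genes only Herpud1 was past it, at 536.8, 572.8 and 597.2 TPM with vehicle and 488.3, 451.7 and 396.7 TPM with GW4064. Of 16 heat shock genes, 4 were lower (25%), Hspa8, Dnaja1, Chordc1 and Dnajb1, and Hspb1 and Bag3 were higher (12.5%). Hspa8, the constitutive HSP70, had 2815, 2831 and 2745 TPM with vehicle and 2428, 2171 and 2420 TPM with GW4064. Of 17 glucocorticoid targets, the metallothioneins Mt1 and Mt2 and Cdkn1a were higher and Sgk1, Nr3c1 and Tsc22d3 lower (17.6% in each direction). Of 19 interferon-stimulated genes 0 were past it, and of 15 tubule injury genes only Clu, which was lower (log2 -0.18). Of 16 hypoxia targets, Pdk1 and the stress gene Ndrg1 were higher and Egln1 lower, and Ndrg1 had 2954, 2669 and 3060 TPM with vehicle and 3229, 3644 and 3863 TPM with GW4064 in the knockout, against a called fall in wild type (log2 -0.73, adjusted p = 0.00456 by limma). Of 16 p53 targets, Cdkn1a was higher and Ccng1 lower. Of 17 immediate early genes, 3 were higher, Fosl2, Myc and Fos, and of 27 cell cycle genes 2, Rrm2 and Mcm7, with 0 lower in either list. Of 16 glycogen genes, Phkb and Gbe1 were higher (12.5%) and Ugp2, Gyg and Gys2 lower (18.8%). Single libraries moved the smaller of these counts. Without knockout vehicle library 1 the higher glucocorticoid, integrated stress response and immediate early counts were 1, 2 and 1. The CAR and PXR count was 2 without knockout vehicle library 3 and without knockout GW4064 library 1 or 3, and the lower glycogen count was 1 without knockout vehicle library 3 or knockout GW4064 library 3. The glucocorticoid count was also 1 without knockout GW4064 library 1 or 2, and the integrated stress response count also 2 without knockout vehicle library 2, knockout GW4064 library 2 or 3, or wild-type vehicle library 3. The bile acid transporter count of 3 was 6 without knockout GW4064 library 2 and 5 without wild-type vehicle library 3.

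Markers of other nephron segments and of tissue that can come along with a kidney were read beside these lists. Of 10 markers of the thick ascending limb and distal convoluted tubule, 0 were past an unadjusted p of 0.05. Of 11 principal cell markers the water channels Aqp2 and Aqp3 were lower, and of 10 intercalated cell markers 3 were (30%, beside 4.64% of all genes), Hmx2, Insrr and Slc26a4, a count that was 1 without knockout vehicle library 3 or knockout GW4064 library 3. Of 15 podocyte and endothelial markers, Pecam1, Plvap and Synpo were higher (20%, beside 6.29% of all genes) and Kdr lower, the higher count being 1 without knockout GW4064 library 1, and of 14 stromal and muscle markers Pdgfra was higher. Of 8 urothelium markers Upk3b was higher, and of 5 adrenal and liver markers 0 were past the threshold. Of 10 fat markers tested, 0 were past an unadjusted p of 0.05, and their median log2 difference was 0.29. Adipoq was at 2.23, 0.148 and 3.32 TPM with vehicle and 3.23, 1.48 and 3.05 TPM with GW4064 in the knockout, so vehicle library 2 stood lowest and GW4064 library 2 next. The summed fat markers were 276 to 300 TPM with vehicle and 272 to 390 TPM with GW4064. With the mean log2 level of 4 fat markers as a covariate, 2 genes were called in the knockout, and the NRF2 and fatty acid oxidation counts were 18 and 12. Of 12 immune markers 0 were past the threshold, and their sum was 417 to 642 TPM with vehicle and 372 to 466 TPM with GW4064. Red cell markers ranged from 771 to 2680 TPM in the treated libraries against 1140 to 1360 TPM with vehicle. The globin genes among them have near-identical copies, so their single values are uncertain.

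The number of called genes turned on the second library of each knockout group. Without knockout GW4064 library 2, 53 genes were called, 19 higher and 34 lower. Without knockout vehicle library 2, 31 were called, 6 higher and 25 lower. Without each of the other 4 knockout libraries, 0 or 1 gene was called, and without each wild-type library, 0 to 2. Srxn1 (adjusted p = 0.0276), Ugdh (0.0119) and Abcc4 (0.0405) were called by limma without knockout GW4064 library 2, and in none of the other 5 fits that left out 1 knockout library. For these 3 genes this library was the treated one nearest the vehicle group. It also had the lowest Adipoq level of its group, whose part in the result was not tested.

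**Figure D5:**
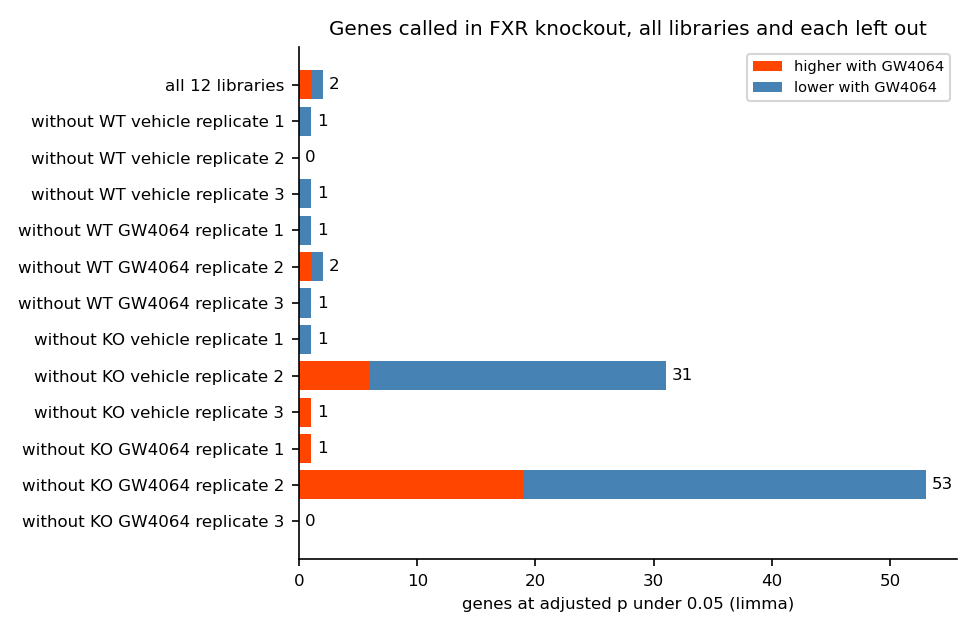
Number of genes at an adjusted limma p under 0.05 for GW4064 against vehicle in FXR knockout, with all 12 libraries and with each library left out, split by direction. The count is 2 with all libraries, 53 without knockout GW4064 replicate 2 and 31 without knockout vehicle replicate 2, and 0 to 2 in the other fits.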

How the data were processed

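Mouse kidney RNA for 12 libraries was extracted with Trizol and sequenced after a stranded total RNA preparation (Illumina TruSeq, Gold kit), per the labels' protocols. Per the submitters' processing notes, the tools were HISAT2, StringTie and Cufflinks with mm10; which tool did which step, and the versions and gene models, are not stated there. The authors deposited 1 table per library with TPM, FPKM and coverage (signal) per gene. TPM was used as deposited; FPKM served as an alternative, and coverage with FPKM gave the mapped bases. No read counts were used here.

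Rows of 1 gene identifier were summed (24532 identifiers, 24462 with a symbol in the RefSeq table), and genes at 1 TPM or more in at least 3 of 6 knockout libraries were kept. limma 3.58.1 (R 4.3.3) was fitted on log2(TPM + 0.5) with 1 mean per group and a variance trend, so fold changes are on that scale and understate those of low genes. Exact permutation of 3 against 3 cannot go below p = 0.1 and was not used. On simulated data for the knockout comparison (14065 genes, 200 changed, 20 runs), 62.3%, 87.2% and 98.7% of changes of 0.5, 1 and 2 on the log2 scale were recovered, with 5.07% false calls. The noise was normal, independent between libraries and genes, and set by the spread that the fit had estimated. Real libraries can differ more than this. The changes of 1 and 2 lay beyond the 1st and 99th percentiles of the data (-0.58 and 0.66), and those of 0.5 lay within them. These shares therefore hold for the simulation and not for the data.

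Named are a fixed set of genes, those called, those called in at least 2 fits without 1 knockout library, the 12 of lowest p in each direction (mean of at least 5 TPM, no overlap between groups) and up to 4 members per direction of 40 lists; Hmox1 was named after its values were seen. The genes and lists were chosen with earlier results of these data known. The alternatives were other pseudocounts, filters, scalings, variance models and sample sets, a replicate block and leaving out each library; the fat marker covariate was added after seeing the data. Some genes are not reported here.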

Additional observations from a re-analysis of the deposited data

Results flagged for a closer look

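For the 43 named genes listed here the GW4064 effect in the knockout differed from that in wild type at an adjusted interaction p under 0.05 (limma, over 14065 genes). Values are the knockout effect minus the wild-type effect on the log2 scale, and the naming rule used the knockout effect, which enters this difference. Larger positive differences were those of Wsb1 1.29, Snora75 1.59, Mir365-2 1.49, Abcc4 1.12, Pklr 0.96, Cyp26b1 2.35, Pdgfra 0.92, Ndrg1 1.04, Nupr1 1.48. Smaller positive ones were Slc16a1 0.70, Srxn1 0.72, Ugdh 0.63, Cwc27 0.47, Rab6b 0.66, Gstp1 0.54, Psmd11 0.43, Nfe2l1 0.26, Hspb1 0.74, Txnrd1 0.38, Eno1 0.40, Slc1a5 0.56, Pfkl 0.28, Plvap 0.35, Synpo 0.50. Larger negative differences were B4galt5 -2.39, Sgk1 -1.30, Slc51a -3.83, Slc51b -3.05, Tm4sf4 -4.01. Smaller negative ones were Trim7 -0.55, Sepsecs -0.36, Lpgat1 -0.31, Hes6 -0.61, Lpar3 -0.49, Neu1 -0.67, Hspa8 -0.31, Slc34a3 -0.55, Mvd -0.51, Nmrk1 -0.49, Cox5a -0.23, Acat2 -0.35, Hmgcs1 -0.28, Aifm2 -0.76.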

How the results depend on the processing

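The knockout count of 2 called genes was 1 with a pseudocount of 0.1, median-of-ratios scaling, quantile normalization, FPKM or sample weights, and 0 without the variance trend, with only the 6 knockout libraries or with the replicate block; limma then gave 1449, 1180 and 1598 genes at an unadjusted p under 0.05, beside 1537. Leaving out each library gave 0 to 53 called genes and 1187 to 1715 at an unadjusted p under 0.05. The interaction count of 457 was 205 when the fat marker score was a covariate and 217 to 534 when each library was left out. Of the 146 named genes, 2 were called with all libraries, and none changed direction while called. A change of direction in a gene that was not called was not counted. Osgin1, for example, ran from -0.21 to 0.21 when each library was left out. Calls of single named genes were lost 25 times and gained 27 times over 26 alternatives. The cause was not tested. Same-numbered libraries did not deviate together over all genes (correlations -0.11 to 0.09). With 3 libraries per group such correlations cannot exclude that the numbers pair samples, and the sample titles do not say. The replicate block count of 0 is given only here. With 3 libraries per group and TPM without read counts, counting error at low levels could not be separated from the spread between libraries.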
